A study of Mus musculus with 12 samples.

Results

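Mouse embryonic stem cells with the genotype Alkbh5 del-cIDR, called ΔcIDR here, were compared with wild-type (WT) cells of the same line, E14TG2a, by sequencing of chromatin-associated RNA recovered with an antibody to N6-methyladenosine (m6A). The comparison rests on 4 of the 12 samples in the series, the columns of ΔcIDR replicates 1 and 2 and WT replicates 1 and 2 in a table of 74299 genomic intervals and a table of 4929385 annotated repeat loci. The third genotype, Alkbh5 KO, has 2 libraries in the same tables, and its values are set beside those of ΔcIDR where they bear on the same intervals. All 3 genotypes were grown with LIF and the inhibitors PD0325901 and CHIR99021, and the labels describe no other allele or treatment. The ΔcIDR columns carry the letters KI and were read as Alkbh5 del-cIDR because the labels hold no other genotype beside WT and KO. The labels do not say how many clones stand behind each genotype, and both KO columns are named KO6, so each genotype may be 1 clone. Nothing states that the replicates were separate cultures, so the p-values measure only the spread between these libraries.

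m6A is the most common internal modification of messenger RNA, and it also marks nascent transcripts, long non-coding RNA and RNA of transposable elements that stay on chromatin. It is written by the METTL3 and METTL14 complex and can be erased by ALKBH5, a demethylase of the nucleus. An intrinsically disordered region (IDR), such as the one the deletion is named for, is a stretch of protein without a fixed fold, and such stretches often bring proteins together with RNA or with each other. In embryonic stem cells, RNA of endogenous retroviruses (ERVs, of the classes ERV1, ERVK and ERVL) and of LINE-1 (L1) elements is among the known targets of m6A. The comparison therefore asks what the m6A-antibody signal on chromatin RNA looks like when ALKBH5 is present without this region.

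Each library held between 13234793 and 15145206 reads in intervals. Each deposited value equals an integer read count multiplied by a constant of its library, which follows the reads of a spike-in RNA that carries m6A. Those spike-in reads numbered 814 and 849 in ΔcIDR and 1172 and 1106 in WT, so that 1 read was worth 0.168 and 0.161 units of signal in ΔcIDR and 0.116 and 0.123 in WT. The median tested interval lay 0.46 above WT on the log2 scale of deposited signal. The direction of the total depended on the spike-in, since total interval signal differed by 0.61 ± 0.05 (SE, n = 2 per group) on the deposited scale, by −0.049 ± 0.074 when scaled by ERCC spike-in reads and by −0.57 ± 0.73 when scaled by an unmodified spike-in RNA. The smallest p that a two-sided exact permutation test of 2 against 2 libraries allows is 0.33, so no p is given for totals. One quantity that needs no spike-in is the number of interval reads per read in repeats outside the intervals. It was 0.804 in both ΔcIDR libraries, 0.690 and 0.703 in the WT libraries and 0.631 and 0.668 in the KO libraries, so that ΔcIDR stood above WT without overlap.

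With 0 columns read as input in the tables, the amount of each RNA was not measured, and signal can differ through m6A or through RNA. In these bulk samples fewer cells with an RNA and less of it per cell cannot be told apart either. No annotation of the files' build was at hand, so intervals and loci are described by repeat family and by their GRCm39 positions as the files give them, with the counting base unstated, and whether they lie in exons, introns or UTRs was not analysed here. For the same reason the marker genes of embryonic stem cells were not checked.

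To keep apart the shift of whole libraries and the changes of single intervals, an interval was counted as changed when it passed an adjusted p of 0.05 in limma on the deposited scale and again with every library's median set to 0 (the centred scale), with the same sign, and with both ΔcIDR libraries on 1 side of both WT libraries. Of the 37759 intervals with a mean signal of at least 1, 63 were higher in ΔcIDR (0.167%) and 26 were lower (0.0689%). Together these were 89 intervals (0.236%). Deposited signal lay higher in ΔcIDR, so a loss passes this rule less easily than a gain. All 63 gains of the centred scale passed it, but 26 of its 52 losses. On the deposited scale alone the counts were 393 (1.04%) and 33 (0.0874%), or 426 in all (1.13%), of which 92.3% were higher. On the centred scale alone they were 63 (0.167%) and 52 (0.138%), or 115 in all (0.305%), of which 54.8% were higher. Scaled by ERCC reads 25.9% of the calls were higher, and with repeat reads outside intervals as the scale 74.1%. The 426 calls on the deposited scale were 10250 with the 4 ΔcIDR and WT libraries alone, 73 and 47 without ΔcIDR replicate 1 or 2, 30 and 74 without WT replicate 1 or 2, and 10177 and 10234 without KO replicate 1 or 2. The 115 on the centred scale were 64 with the 4 libraries alone and, in the same order of libraries left out, 175, 70, 60, 46, 54 and 53. The gains called on both scales ranged from 0.73 to 4.44 on the centred log2 scale with a median of 1.15, and the losses from −1.59 to −3.32 with a median of −1.86. Every change below is on the centred scale, as log2 of signal plus 0.5, which understates the change of low intervals. The count of 89 depended on the libraries used. It was 55 without ΔcIDR replicate 1, 24 without ΔcIDR replicate 2, 19 without WT replicate 1, 25 without WT replicate 2, and 54 and 53 without KO replicate 1 or 2, which enter through the pooled spread. A total of 15 gains and 12 losses passed on the centred scale in all 6 of these fits.

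**Figure D1:**
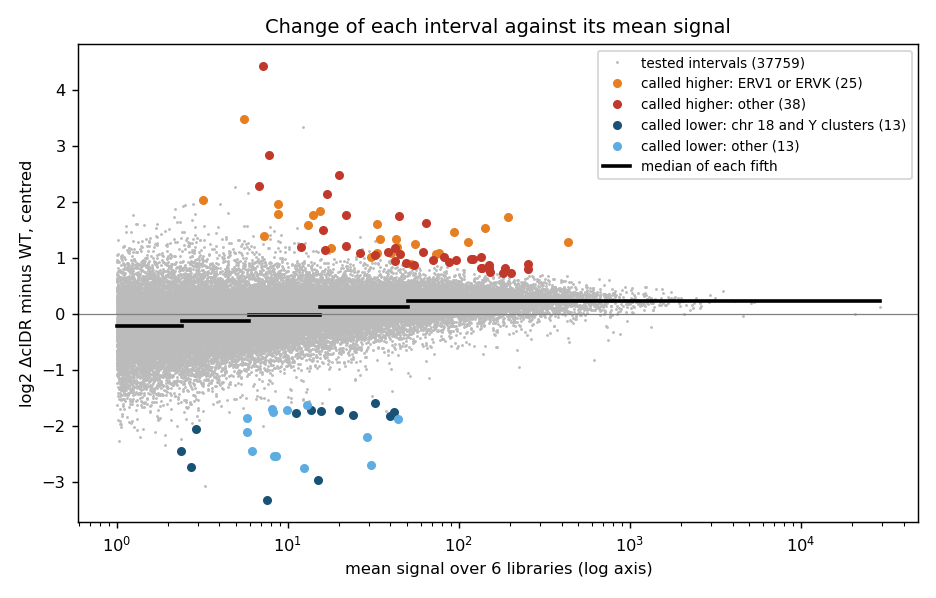
Centred log2 difference, ΔcIDR minus WT, of each of the 37759 tested intervals (vertical axis) against its mean signal over the 6 libraries (horizontal log axis). Coloured points are the 63 intervals called higher, split into 25 made of ERV1 or ERVK and 38 others, and the 26 called lower, split into 13 in the clusters on chromosomes 18 and Y and 13 others; black lines are the medians of the 5 signal classes, which go from below 0 to above 0.

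The gains were counted by repeat class. ERV1 elements, gammaretrovirus-like proviruses, made up 12 of the 63 gained intervals although 281 tested intervals (0.744% of all) were ERV1, so that 4.27% of them were called higher against 0.167% of all intervals. ERVK elements, the betaretrovirus-like class that includes IAP and ETn proviruses, gave 13 gains among 1392 tested intervals (0.934%). A further 36 gains had no repeat family over 50% of their length, 1 was a structural RNA and 1 belonged to an unclassified family. L1, with 8261 tested intervals, gave 0 gains and 7 losses, or 0.0847% lower against 0.0689% of all intervals, and 4 of the 7 lay in 1 cluster on chromosome 18. At an unadjusted p under 0.05 in limma on the centred scale, 67 L1 intervals were higher (0.811%) and 625 lower (7.57%), against 9.40% and 4.77% of all tested intervals, and edgeR called 0 and 3 by the rule of both scales. The same unadjusted counts were 109 (7.83%) and 102 (7.33%) for ERVK, a smaller share higher and a larger share lower than among all intervals. For ERV1 they were 48 (17.1%) and 19 (6.76%). By the rule of both scales, intervals of MaLR, SINE B1, SINE B2, SINE B4 with ID, and DNA transposons gave 0 calls in limma and in edgeR, among 1002, 357, 213, 116 and 28 tested. Their unadjusted counts in limma were 40, 13, 8, 5 and 2 higher and 63, 19, 8, 8 and 1 lower. As shares these were 3.99%, 3.64%, 3.76%, 4.31% and 7.14% higher and 6.29%, 5.32%, 3.76%, 6.90% and 3.57% lower. Over all tested members, called or not, the median ERV1 interval lay −0.022 ± 0.042 (SE) and the median ERVK interval −0.089 ± 0.040 from all intervals.

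The gained ERV1 intervals were found at 8 sites, and the largest had many reads in every library. On chromosome 13 (80851472 to 80853200) the reads were 5718 and 5744 in ΔcIDR, 2378 and 2500 in WT and 956 and 958 in KO, which is 1.28 ± 0.14 on the log2 scale (limma adjusted p = 0.000774). Both ΔcIDR libraries were above both WT libraries and the KO libraries were below them. On chromosome X (63979483 to 63980070) the reads were 2059 and 1937 in ΔcIDR, 724 and 698 in WT and 150 and 184 in KO, a change of 1.53 ± 0.17. On chromosome 1 (90551881 to 90553560) they were 1223 and 1314 against 472 and 474, a change of 1.46 ± 0.17, with 186 and 210 in KO. These 3 intervals were chosen after their values were seen, as the ERV1 gains with the most reads, and each passed in all 6 fits that left out a library. Another 4 gained ERV1 intervals lay side by side on chromosome 18 (9592505 to 9596874) and 2 on chromosome 2 (150544653 to 150546339), with median changes of 1.14 and 1.48 over the tested intervals there.

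The rule for naming picked the 12 largest gains, which included 2 ERV1 and 4 ERVK intervals of lower signal. The ERVK interval on chromosome 15 (34228906 to 34229159) had 84 and 86 reads in ΔcIDR against 3 and 5 in WT, with 24 and 31 in KO, a change of 3.49 ± 0.34 (limma adjusted p = 0.000451). It passed in all 6 fits that left out a library. On chromosome 9 an ERVK interval (38325586 to 38325805) had 253 and 217 reads in ΔcIDR and 66 and 63 in WT but 0 and 2 in KO, so that the 3 genotypes did not overlap. Its change was 1.84 ± 0.32 (limma adjusted p = 0.0302), and it passed in 2 of the 6 fits. The ERVK intervals on chromosome 12 (5667151 to 5667377; 105 and 162 reads against 46 and 21) and chromosome 3 (51009007 to 51009237; 116 and 142 against 49 and 25) rose by 1.96 ± 0.38 and 1.79 ± 0.35 and passed in 2 and 1 of those fits. The ERV1 interval on chromosome 15 (22702358 to 22702615) had 203 and 214 reads against 46 and 77, with 8 and 13 in KO, and that on chromosome 9 (5066758 to 5067002) 51 and 48 against 9 and 9, with 6 and 3. They rose by 1.78 ± 0.30 and 2.05 ± 0.39, and the second passed in 0 of the 6 fits, with a limma adjusted p of up to 0.156.

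The largest gain of all was an interval on chromosome 11 (94410697 to 94410907) that was assigned to no repeat family. A simple repeat covered 0.457 of its length, which is below the cut for assignment. The interval had 154 and 101 reads in ΔcIDR, 1 and 3 in WT and 6 and 2 in KO, a change of 4.44 ± 0.40 (limma adjusted p = 0.000275). The KO libraries lay near WT and far below ΔcIDR. On chromosome 5 (31287727 to 31287935) the reads were 346 and 280 against 80 and 36, with 22 and 23 in KO, and the change was 2.49 ± 0.32. On chromosome Y (725352 to 726627) they were 120 and 130 against 11 and 18, with 8 and 20 in KO, and the change was 2.85 ± 0.38. These 3 intervals passed in all 6 fits that left out a library. KO lay above WT in some of the named gains, among them the ERVK interval on chromosome 15 (34228906 to 34229159), with KO minus WT at 1.85. In an interval of an unclassified family on chromosome 9 (22083525 to 22083748) KO reached the level of ΔcIDR. It had 181 and 176 reads in ΔcIDR, 22 and 65 in WT and 192 and 184 in KO, so that both mutants stood above WT, and ΔcIDR and KO did not differ past the threshold (limma adjusted p = 0.786). The remaining 2 of the 12, on chromosome 17 (26386718 to 26386943) and chromosome Y (1263117 to 1263494), rose by 2.29 ± 0.38 and 1.78 ± 0.25.

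**Figure D2:**
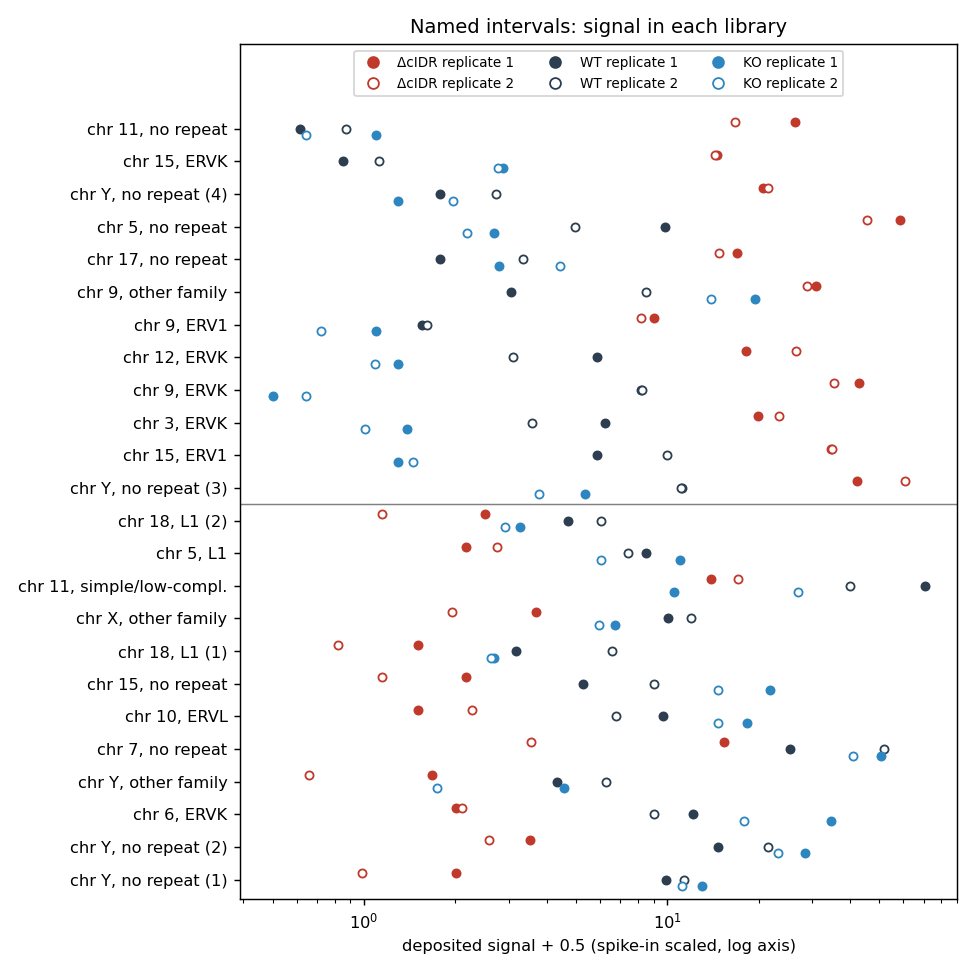
Deposited signal plus 0.5 on a log axis for the 12 largest gains (above the grey line) and the 12 largest losses (below it), with 1 filled and 1 open point per genotype for replicates 1 and 2. Rows are labelled by chromosome and repeat class; in every row both red ΔcIDR points lie on 1 side of both dark WT points, and the blue KO points lie below WT in 5 of the 6 ERV gains and near ΔcIDR in the gain on chromosome 9 of an unclassified family.

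By the rule of both scales the losses were fewer than the gains, and 13 of the 26 lay in 2 clusters. On the centred scale alone there were 52 losses and 63 gains. On chromosome Y (90734108 to 90839803) 8 intervals were called lower within 106 kb, and 19 of the 19 tested there were below 0, with a median of −1.44. The interval with the largest loss (90839411 to 90839803) had 9 and 3 reads in ΔcIDR, 81 and 88 in WT and 126 and 146 in KO, a change of −3.32 ± 0.33 (limma adjusted p = 0.000451). Its neighbour (90837458 to 90838052) had 18 and 13 reads against 122 and 170, with 283 and 311 in KO, a change of −2.96 ± 0.24. The 2 groups did not overlap in either interval, and both passed in all 6 fits that left out a library.

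On chromosome 18 (50793166 to 50977252) 5 intervals were called lower within 184 kb, 4 of them L1. Of the 12 tested there, 11 were below the median change of all tested intervals (0.060). An interval without a repeat at the end of the cluster (50977047 to 50977252), chosen after its values were seen, had 81 and 88 reads in ΔcIDR, 333 and 289 in WT and 281 and 211 in KO, a change of −1.80 ± 0.21 (limma adjusted p = 0.00140). The L1 intervals named by rule (50933898 to 50934186 and 50793166 to 50793705) had 6 and 2 reads against 23 and 49, and 12 and 4 against 36 and 45. They fell by 2.44 and 2.06 on the log2 scale and passed in 2 and 1 of the 6 fits that left out a library.

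Reads in repeats outside the intervals fell over the same stretch of chromosome 18, so the loss was not limited to intervals. Scaled to the same total of such reads in each library (RPM), they were 91.1 and 93.7 in ΔcIDR, 341 and 329 in WT and 236 and 221 in KO within the cluster, and ΔcIDR had 27.6% of the WT level. In bins of 50 kb centred from 175 kb left to 125 kb right of the middle of the cluster, the log2 ratio of ΔcIDR to WT lay between −2.21 and −1.66. KO had 68.3% of WT over the cluster. Of the 62 repeat loci called lower in the whole genome, 23 lay in this cluster or within 200 kb of it, 12 of them L1 and 19 of them outside any interval. They spanned 50791770 to 50989774. In the chromosome Y cluster the reads outside intervals were 492 and 425 RPM in ΔcIDR, 871 and 994 in WT and 1401 and 1408 in KO, so ΔcIDR had 49.2% and KO 151% of WT. A smaller cluster of 2 losses on chromosome 5 (64564295 to 64578893) had 49.8% of the WT level outside intervals in ΔcIDR and 206% in KO.

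**Figure D3:**
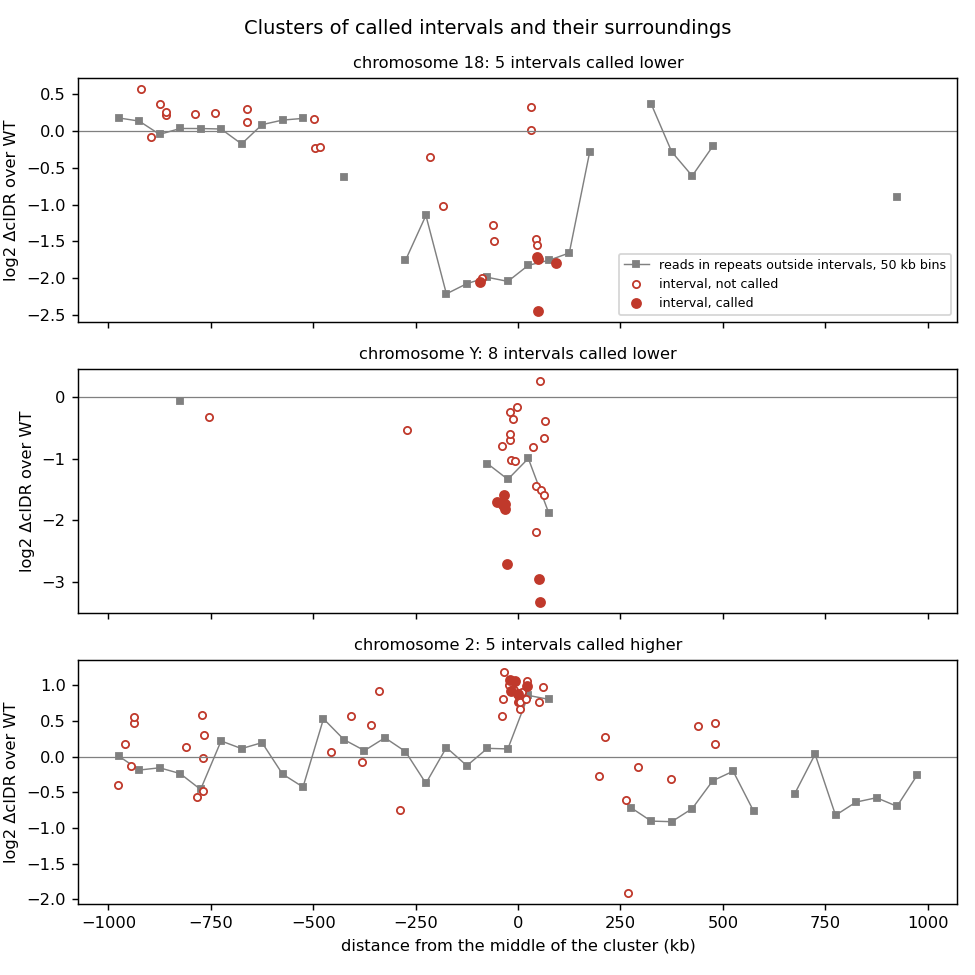
Log2 of ΔcIDR over WT for single intervals (circles, filled where called) and for reads in repeats outside intervals in bins of 50 kb (grey squares), against the distance in kb from the middle of the cluster, for the 3 clusters with 5 or more calls. On chromosome 18 the grey line drops to −2.21 with the intervals and lies between −0.18 and 0.17 more than 500 kb to the left; on chromosome 2 the called intervals lie between 0.88 and 1.08.

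The remaining named losses lay on several chromosomes. Whether any of those on other chromosomes shares sequence with the chromosome Y cluster was not analysed. An ERVK interval on chromosome 6 (19423070 to 19423420) had 9 and 10 reads in ΔcIDR, 100 and 69 in WT and 344 and 238 in KO, a change of −2.75 ± 0.29 (limma adjusted p = 0.000774). An ERVL interval on chromosome 10 (108278359 to 108278559), from the class that includes MERVL, had 6 and 11 reads against 79 and 51, with 180 and 195 in KO, a change of −2.54 ± 0.33. An interval on chromosome 15 (102870383 to 102870732) was assigned to no repeat family, although a low-complexity repeat covered 0.453 of its length. This interval had 10 and 4 reads against 41 and 69, with 215 and 195 in KO, a change of −2.53 ± 0.33. In all 3 the order was ΔcIDR below WT below KO without overlap, and all 3 passed in each of the 6 fits that left out a library. An interval of an unclassified family on chromosome X (168754676 to 168754908) had 19 and 9 reads against 82 and 93, and its KO libraries, with 63 and 75 reads, lay between the other groups on the centred scale. The named losses also held an interval on chromosome 7 (82420449 to 82421140) with 89 and 19 reads against 213 and 416, whose ΔcIDR libraries were far apart, a simple repeat on chromosome 11 (121873076 to 121873374) with 80 and 103 against 602 and 319, an L1 on chromosome 5 (64564295 to 64565186) with 10 and 14 against 69 and 56, and an interval of an unclassified family in the chromosome Y cluster (90759039 to 90759270) with 7 and 1 against 33 and 47. They fell by 2.69, 2.19, 2.10 and 2.72 on the log2 scale and passed in 5, 3, 5 and 3 of those fits.

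Some gains without a repeat were also grouped. On chromosome 2 (76556341 to 76598532) 5 of 14 tested intervals were called and all 14 were above 0, with a median of 0.89. The interval with the most reads there (76597731 to 76598532; chosen after its values were seen) had 1427 and 1446 in ΔcIDR, 755 and 735 in WT and 493 and 429 in KO, a change of 0.99 ± 0.16 (limma adjusted p = 0.0138). On chromosome 14 (32025262 to 32027219) both tested intervals were called, with summed signals of 265.3 and 246.6 in ΔcIDR, 55.5 and 64.1 in WT and 17.4 and 9.34 in KO. On chromosome 17 (34752013 to 34773502) 3 of 5 were called, and the reads in repeats outside intervals there were 383.6 and 409.9 RPM in ΔcIDR, 249 and 231 in WT and 94.7 and 99.9 in KO. A pair on chromosome Y (1158055 to 1263494) rose while the cluster of losses lay on the same chromosome, with 71.8 and 76.7 RPM outside intervals in ΔcIDR against 26.3 and 27.3 in WT and 7.84 and 8.20 in KO.

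Across all calls, reads in repeats outside the intervals within 50 kb moved with the intervals. For the 62 gains with at least 40 such reads, 58 had a higher RPM in ΔcIDR than in WT, and 27 exceeded 0.5 on the log2 scale, against 46.5% and 2.04% of all tested intervals. For the 26 losses, 25 had fewer and 23 lay below −0.5, against 53.5% and 5.59% of all tested intervals. The median was 0.42 for gains and −1.03 for losses. Neighbouring calls share these reads, so the counts are not of independent sites. The 4 ERV1 gains on chromosome 18 have the same surroundings, and 5 losses lay in the chromosome 18 cluster and 8 in the chromosome Y cluster. Reads outside intervals come from the same libraries, so whether the amount of RNA or its m6A moved was not tested. Single intervals did differ from their surroundings. The largest gain, on chromosome 11, had 44.4 and 34.4 RPM around it in ΔcIDR and 37.6 and 41.1 in WT, and the ERVK gain on chromosome 15 (34228906 to 34229159) had 65.3 and 63.4 around it in ΔcIDR against 78.1 and 74.7 in WT.

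The repeat table, which counts every annotated locus whether or not it lies in an interval, gave 185 loci higher in ΔcIDR (0.0425%) and 62 lower (0.0143%) of 434811 tested by the same rule. Together these were 247 loci (0.0568%). Here too the rule kept a smaller share of the losses than of the gains called on the centred scale. On the deposited scale alone there were 301 (0.0692%) and 75 (0.0172%), or 376 in all (0.0865%), and on the centred scale alone 384 (0.0883%) and 311 (0.0715%), or 695 in all. The 376 were 11588 with the 4 ΔcIDR and WT libraries alone and, without ΔcIDR replicate 1 or 2, WT replicate 1 or 2, or KO replicate 1 or 2, they were 72, 72, 50, 68, 9700 and 9515. The 695 were 316 with the 4 libraries alone and 1292, 1522, 191, 144, 256 and 247 in that order. The count of 247 was 68 without ΔcIDR replicate 1, 66 without ΔcIDR replicate 2, and 35 without either WT replicate 1 or WT replicate 2. ERVK held 104 of the 185 gains, or 56.2%, while ERVK loci were 5.76% of those tested, so that 0.415% of ERVK loci were called higher. For ERV1 the gains were 23 of 5911 loci (0.389%). Losses numbered 11 in ERVK (0.0439%) and 3 in ERV1 (0.0508%), also above the 0.0143% of all loci. At an unadjusted p under 0.05 in limma on the centred scale, 1569 ERVK loci were higher (6.26%) and 1572 lower (6.27%), and 356 (6.02%) and 379 (6.41%) ERV1 loci. Of all tested loci 5.11% were higher and 4.80% lower, so that neither class leaned to gains by that count. L1 had 7 gains and 18 losses among 55407 loci, MaLR 7 and 6 among 49207, SINE B1 8 and 5 among 66161, SINE B2 8 and 1 among 71353, and simple and low-complexity repeats 21 and 11 among 61714. Satellite and structural RNA loci gave 0 calls in limma by the rule of both scales, among 2247 and 2137. At an unadjusted p under 0.05 in limma 131 (5.83%) and 158 (7.39%) were higher and 96 (4.27%) and 81 (3.79%) lower. In edgeR, by the rule of both scales, 1 satellite locus was higher and 0 structural RNA loci were called.

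**Figure D4:**
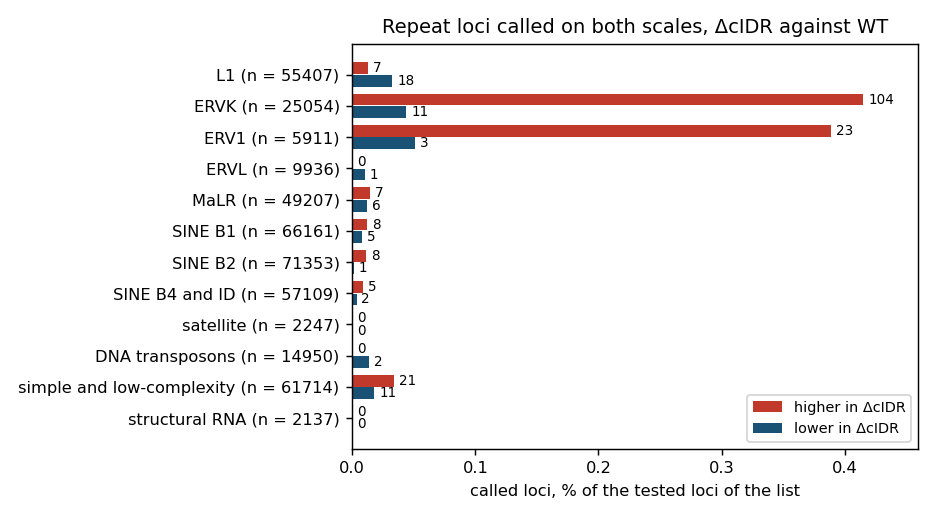
Share of the tested loci of each repeat class that were called higher (red) or lower (blue) in ΔcIDR on both scales, in percent; the number at each bar is the count of called loci, and n is the number tested. ERVK and ERV1 stand at 0.415% and 0.389% higher, with 104 and 23 loci.

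The 104 gained ERVK loci lay at 77 sites when loci within 1 kb were joined, on 21 chromosomes, and the 23 gained ERV1 loci at 17 sites on 11 chromosomes. Neighbouring loci can be parts of 1 provirus, an internal region and its long terminal repeat, and are then not independent. The gained ERVK loci had a median length of 705 bp against 440 bp for all tested ERVK loci, and 27 of them were over 2 kb, as were 11 of the ERV1 loci. Of the 104 gained ERVK loci 31 overlapped an interval, a larger share than the 7.74% of all tested ERVK loci. Of the 23 gained ERV1 loci 16 did, against 6.61% of all tested ERV1 loci. Loci were not matched by signal in these comparisons, and the lost ERVK loci were longer still, with a median of 1425 bp. Of the gained ERVK loci 17, and of the ERV1 loci 10, passed in all 6 fits that left out a library.

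Some of the loci that passed in all 6 fits are given here and were chosen after their values were seen. On chromosome 9 an ERVK locus (13665918 to 13668635) had 2346 and 2566 reads in ΔcIDR, 896 and 845 in WT and 255 and 263 in KO, and the next locus (13668611 to 13669313) 2753 and 3565, 1076 and 907, and 71 and 93. Their changes were 1.65 ± 0.14 and 1.82 ± 0.16 (SE), with limma adjusted p of 4.8e-08 and 1.63e-07. On chromosome 4 an ERVK pair (119784017 to 119786732 and 119786733 to 119787411) had 426 and 457 reads in ΔcIDR against 119 and 105 in WT, and 287 and 381 against 104 and 85. KO had 21 and 30, and 9 and 9. An ERV1 locus on chromosome 13 (80850828 to 80853069) had 4083 and 4049 reads in ΔcIDR, 1695 and 1835 in WT and 647 and 630 in KO, a change of 1.36 ± 0.12. In each of these loci the order was KO below WT below ΔcIDR, with no overlap between the genotypes.

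The loci with the largest gains, which the naming rule picked, were mostly short and not ERVs. The signal filter used the mean of all 6 libraries. A locus with few WT and KO reads could thus enter only through ΔcIDR, and then only be called higher. A SINE B2 locus on chromosome 19 (5904298 to 5904475), from a family of short elements transcribed by RNA polymerase III, had 327 and 466 reads in ΔcIDR, 6 and 5 in WT and 8 and 10 in KO, a change of 5.50 ± 0.31 (limma adjusted p = 2.74e-12). A simple repeat of 21 bp on chromosome 7 (80972989 to 80973010) had 304 and 209 reads against 5 and 3, with 3 and 2 in KO, a change of 5.13 ± 0.35. Both passed in all 6 fits that left out a library. A simple repeat on chromosome 17 (40262405 to 40262440) had 115 and 188 reads against 1 and 1, a ratio of 169 with a 95% counting interval from 46.3 to 1400, but its KO libraries had 785 and 11 and were far apart. A MaLR locus on chromosome 10 (23687466 to 23687581) had 39 and 20 reads in ΔcIDR and 0 in all 4 WT and KO libraries. Against a floor of 3 reads over the WT group it was at least 21.9-fold higher than in WT. It passed the filter only through its ΔcIDR reads. The other 4 were a MaLR locus on chromosome X (8729286 to 8729494; 49 and 37 reads against 3 and 6), ERVK loci on chromosome 3 (103126441 to 103126945; 41 and 50 against 4 and 7) and chromosome X (136049531 to 136050174; 39 and 33 against 6 and 2) and a simple repeat on chromosome 14 (54877949 to 54878039; 13 and 34 against 1 and 1), the last of which passed in 1 of the 6 fits.

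Of the 8 largest locus losses, 4 lay in or beside the chromosome Y cluster and 1 in the chromosome 18 cluster. The low-complexity locus on chromosome Y (90838039 to 90838068) had 9 and 2 reads against 124 and 115, with 120 and 227 in KO, a change of −3.83 ± 0.33 (limma adjusted p = 6.65e-08). The L1 locus on chromosome 18 (50860121 to 50860537) had 1 and 0 reads in ΔcIDR, 27 and 35 in WT and 25 and 20 in KO, so that WT was 55.7 times ΔcIDR with a 95% counting interval from 9.63 to 2233. A simple repeat on chromosome Y (90839913 to 90839943) had 0 and 0 reads against 19 and 27, at least 13.8-fold lower. The other low-complexity loci there (90755205 to 90755237 and 90837544 to 90837581) had 7 and 2 against 37 and 144, and 0 and 3 against 31 and 45. An ERVK locus on chromosome 10 (14729678 to 14730317) had 2 and 0 reads against 30 and 24, with 99 and 53 in KO. The last of the 8 were a MaLR locus on chromosome 14 (14652433 to 14652609) and an ERV1 locus on chromosome Y (43876369 to 43877469), each with 1 and 0 reads in ΔcIDR and 20 and 19 in WT. Beyond these, the 11 lost ERVK loci (0.0439% of ERVK loci tested, against 0.0143% of all) had a median length of 1425 bp. KO was above WT in 10 of them, while it was below WT in 55.3% of all tested ERVK loci. In the 18 lost L1 loci KO was below WT in 15, and 12 of the 18 lay in or beside the chromosome 18 cluster. One on chromosome 1 (182029646 to 182034505; chosen after its values were seen) had 129 and 186 reads in ΔcIDR, 655 and 557 in WT and 1684 and 1519 in KO, a change of −1.79.

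The KO libraries offered a side-by-side reading, with the limit that both mutants were compared with the same WT libraries, so that an unusual WT value moves both differences in the same direction. Of the 63 gained intervals 54 had KO below WT, with a median of −1.11 for KO minus WT, while KO was below WT in 53.0% of all tested intervals. Among gained ERVK loci 95 of 104 had KO below WT, and among gained ERV1 loci 23 of 23, with medians of −1.29 and −1.39, against 55.3% and 50.6% of all tested loci of those classes. Of the 26 lost intervals 16 had KO above WT. Of the 62 lost loci 29 had KO above WT and 33 below, with a median of −0.09. In or beside the chromosome 18 cluster lay 23 of the 62, so they are not independent. Reads outside intervals in KO were 68.3% of WT there. Of the 18 lost L1 loci 3 had KO above WT, and 12 of the 18 lay in or beside that cluster. Of the 11 lost ERVK loci 10 had KO above WT. A direct test of ΔcIDR against KO, which leaves WT out of the contrast but uses the ΔcIDR libraries that picked the intervals, called 6654 intervals higher in ΔcIDR (17.6%) and 3745 lower (9.92%). Its total of 10399 was 4929 without KO replicate 1 and 4374 without KO replicate 2. It called 61 of the 63 gains higher and 23 of the 26 losses lower. For repeat loci it called 28230 higher (6.49%) and 21018 lower (4.83%), and among them 99 of the 104 gained ERVK loci and all 23 gained ERV1 loci higher.

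Chromosomes 6, 8 and Y stood apart from the others, in intervals and in repeat loci outside them. Relative to all intervals, the median interval lay −0.14 ± 0.0065 (SE) from WT on chromosome 6, −0.13 ± 0.014 on chromosome 8 and −0.40 ± 0.23 on chromosome Y. In loci outside the intervals the medians were −0.16 ± 0.020, −0.19 ± 0.017 and −1.04 ± 0.20, the last over 91 loci. Both ΔcIDR libraries were below both WT libraries in each. The KO libraries went the other way on all 3, at 0.35, 0.32 and 0.37 above WT in loci outside the intervals. Medians of the other chromosomes lay between −0.079 and 0.075 in intervals and between −0.012 and 0.045 in outside loci. Chromosomes 6 and 8 held 2 and 0 of the 26 losses and 0 gains, chromosome Y held 8 losses and 3 gains, and what lowers these chromosomes was not tested. With chromosomes 6, 8 and Y left out of the fit there were 42 gains and 15 losses.

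**Figure D5:**
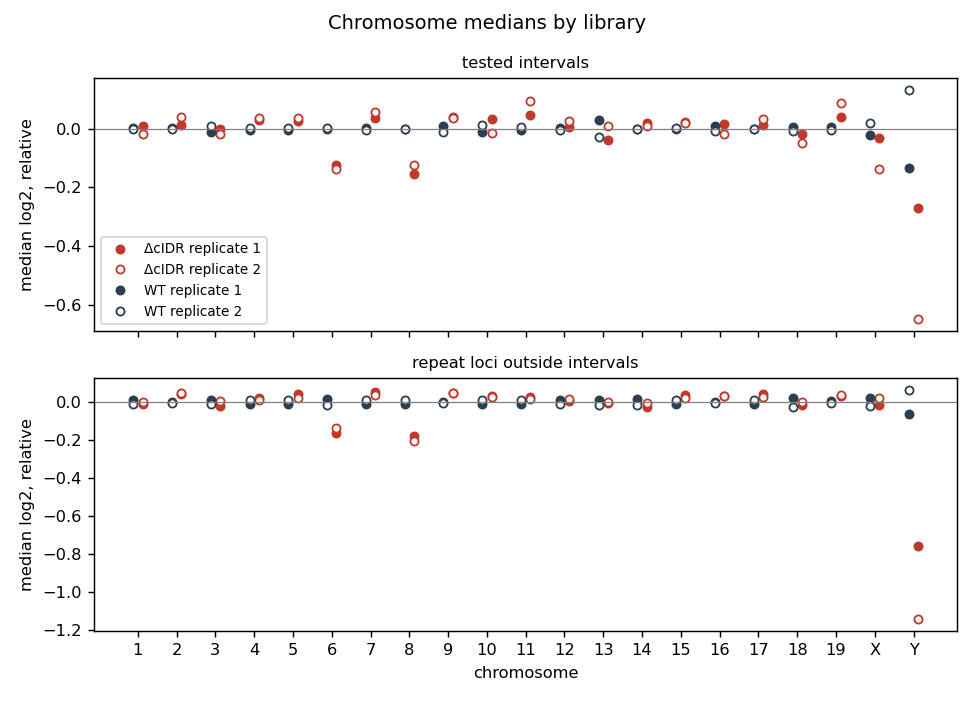
Median log2 value of each chromosome relative to all chromosomes and to the WT mean, for tested intervals (top) and repeat loci outside intervals (bottom), with 1 point for each of the 4 libraries. Chromosomes 6, 8 and Y have both ΔcIDR points below both WT points, at −0.76 and −1.14 for chromosome Y in the lower panel.

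The change of an interval also varied with its level. From the class of lowest to that of highest mean signal, in 5 classes of equal size, the medians relative to all intervals were −0.27 ± 0.08, −0.18 ± 0.09, −0.07 ± 0.03, 0.08 ± 0.02 and 0.18 ± 0.07 (SE). Both ΔcIDR libraries lay below both WT libraries in the first 3 classes and above them in the last 2. Gains numbered 0, 2, 10, 22 and 29 in these classes and losses 1, 4, 12, 9 and 0, so that gains were called mostly at high signal. By length the medians ranged from −0.087 to 0.059.

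L1 intervals were mostly of low signal, and their median lay −0.28 ± 0.19 from all intervals, at −0.098 and −0.44 in the ΔcIDR libraries and −0.073 and 0.073 in the WT libraries. Within the 5 signal classes it was −0.35, −0.28, −0.24, −0.15 and −0.12, below 0 in each and with standard errors of 0.036 to 0.22. Intervals without a repeat went from −0.16 to 0.18 over the same classes, and over all classes lay 0.11 ± 0.04 above all intervals. ERVK intervals were at −0.13 in the lowest class and 0.10 in the highest. Relative medians of the lists not given above lay between −0.24 and 0.25, with SEs of 0.020 to 0.22.

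All reads of a family were summed over its loci, and each library was centred on its family of middle signal. On this scale 3 of 57 families were higher in ΔcIDR (5.26%) and 20 were lower (35.1%). The reference in each library was thus 1 family, and tRNA lay at 0.001 ± 0.051 (SE). These counts are of changes against that reference and depend on it. In all 23 families were called (40.4%). On the deposited scale limma called 0 in either direction (0%), with 5 higher and 0 lower at an unadjusted p under 0.05. The families that were higher were LINE/L1-Tx1 at 0.29 ± 0.10 (SE; limma adjusted p = 0.0233), SINE/tRNA at 0.16 ± 0.05 and DNA/hAT-Ac at 0.12 ± 0.05, and 1 locus held 73.3%, 33.0% and 45.0% of their reads. L1, the family with 836507 loci, had 2427145 and 2324532 reads in ΔcIDR and 2653051 and 2735940 in WT, a change of −0.22 ± 0.08 (limma adjusted p = 0.0362). The other 7 of the 8 largest family losses were DNA/PIF-Harbinger, DNA/Crypton, LINE/RTE-BovB, SINE/tRNA-Deu, DNA/Crypton-A, LINE/Dong-R4 and the class labelled DNA, from −0.35 to −0.22, with 42 to 1961 loci each. The total of 23 was 14 without ΔcIDR replicate 1, 12 without ΔcIDR replicate 2, 7 without WT replicate 2 and 15 without either KO library. The balance turned with the setting. It was 9 higher and 0 lower without the locus with the most reads of each family, 1 and 39 with loci outside intervals only, 2 and 0 when centred on total repeat signal, and 5 and 1 without chromosomes 6, 8 and Y. ERVK and ERV1 as families were not among the 23 called. With loci outside intervals only, both were among the 39 lower, at −0.14 and −0.16 (limma adjusted p = 0.00159 and 0.00157). That fit too was centred on a family of middle signal, and most families were lower in it. Over all loci ERVK held 7.07% and 7.22% of repeat reads in ΔcIDR and 7.21% and 7.08% in WT. ERV1 held 1.65% and 1.68% against 1.65% and 1.63%. Single loci of ERVK and ERV1 made up most of the locus gains.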

How the data were processed

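Both tables hold 6 libraries of chromatin-associated RNA in columns that are not labelled as antibody or input. Per the submitters' processing notes, the tools were HISAT2, MACS2, featureCounts, fastp, Picard, SAMtools and bedtools, with the build GRCm39 and no versions. The deposited signal was found to be whole reads times 1 factor per library, and whole reads were recovered for 100% of values (tolerance 1e-06) by dividing by each column's smallest nonzero value. This is not the unit first assumed, so log2 values were tested. The depth was 13234793 to 15145206 interval reads per library.

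limma 3.58.1 (R 4.3.3) was fitted to log2(signal + 0.5) with 1 mean per genotype over the 6 libraries, keeping rows whose mean signal reached 1, with Benjamini-Hochberg adjustment at 0.05. In the repeat table, whose factors are 19.9 times larger, the pseudocount and filter were scaled by that ratio. edgeR 4.0.16 and DESeq2 1.42.0 on the recovered reads were alternatives, and the scripts were tested on simulated data. Spike-in rows were left out. An interval belonged to a repeat family that covered at least 50% of it (bedtools 2.31.1). Called intervals within 250 kb of each other and of the same direction formed a cluster. Surroundings were the reads in repeats outside intervals within 50 kb, given where at least 40. Folds against 0 reads used a floor of 3 reads, and intervals of ratios are 95% and cover counting error only. Loci outside intervals entered the chromosome medians with a mean of at least 20 reads.

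The 12 intervals and 8 repeat loci with the largest centred changes in each direction were named, and others are marked as chosen after their values were seen. The members and lists were chosen with earlier results of these data known. The remaining samples of the series were not analysed here.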

Additional observations from a re-analysis of the deposited data

How the results depend on the processing

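Interval calls on the deposited scale (426) were 10250 with the 4 ΔcIDR and WT libraries only, 43 with no filter, 54 scaled by ERCC reads, 1 by the unmodified spike-in and 116 by reads in repeats outside intervals, and 30 to 10234 with a library left out, the highest without KO replicate 2 and the lowest without WT replicate 1. On the centred scale (115) they were 56 with a pseudocount of 0.1, 64 with 4 libraries, 381 with no filter, 53 with a 5 times higher filter, 76 without chromosomes 6, 8 and Y, 73 in edgeR, 239 in DESeq2 and 46 to 175 with a library left out. Calls on both scales (89) were 45, 43, 38 and 57 with the smaller pseudocount, no filter, the higher filter and those chromosomes left out, 53 in edgeR and 19 to 55 with a library left out. Calls of repeat loci were 11588 with 4 libraries, 220 with the higher filter and 50 to 9700 with a library left out on the deposited scale (376), 412 with the smaller pseudocount, 316 with 4 libraries and 144 to 1522 with a library left out on the centred scale (695), and 35 to 255 with a library left out on both (247). Family calls (23) were 15 with 4 libraries, 40 for loci outside intervals, 9 without each top locus, 2 centred on the total, 6 without those chromosomes and 7 to 23 with a library left out. Calls of ΔcIDR against KO (10399) were 4374 to 10792. The total (0.61) was −0.049, −0.57 and 0.21 by ERCC, unmodified spike-in and outside repeats. The cause of these differences was not tested. Among the 24 named intervals, 103 of 144 values with a library left out stayed past the threshold and 41 did not, and none turned direction.

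Same-numbered libraries of ΔcIDR and WT deviated in opposite directions (correlation −0.29), so the numbers do not pair them. With the replicate number as a block there were 90 interval calls on the deposited scale, 77 on the centred scale and 41 on both, and 208, 405 and 147 calls of repeat loci. With the pairing crossed, an alternative chosen after seeing the data, there were 3557 interval calls on the centred scale and 428 on both.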
